A study of Mus musculus with 3 samples.

Results

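The cells described here were spleen cells that carried transcripts of Mpo, Elane, Prtn3 and Ctsg, the genes of the primary (azurophil) granule that the working name granulocyte-monocyte progenitors refers to. A barcode was a member when it had more than 200 genes, under 15% mitochondrial unique molecular identifiers (UMIs, each standing for 1 captured RNA molecule) and a top hashtag at least 3 times the second, when the UMIs of the 4 genes summed to 5 or more, and when Cd79a and Cd3e, markers of B and T cells, were at 0. The 3 libraries held 10, 26 and 83 members, in all 119, among 47810 barcodes that passed the limits on genes, mitochondrial content and hashtags, out of 54971 in all. The members were chosen by the measured levels of Mpo, Elane, Prtn3 and Ctsg, so those levels are given as a description.

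Splenocytes of mice aged 12 to 14 weeks were measured in 3 droplet libraries of the 5′ kind, after T cells had been depleted with CD3 microbeads. The control library joined sham males with females, both of strain C57BL/6, and is listed with a pump for 2 weeks from 10 weeks of age. For the Ang II library, C57BL/6 mice were given angiotensin II (Ang II) by minipump for 2 weeks from 10 weeks of age, at a dose labelled as 490 ug/kg/min, alone or together with 2-HOBA, a scavenger of reactive lipid aldehydes. The B6.SLE123 library pooled mice of the lupus-prone strain B6.SLE123, which carries the Sle1, Sle2 and Sle3 loci on the C57BL/6 background, given placebo or 2-HOBA for 6 weeks from 7 weeks of age. Each condition was a pool of 3 mice, marked with hashtag antibodies. The labels tie none of the 6 hashtags, C0301 to C0306, to a condition or a mouse, so hashtag populations are given by value and the effect of 2-HOBA was not analysed here. There was 1 library per group, so differences between libraries come without replicates. Intervals are 95% and cover counting error only, since UMIs of 1 cell share that cell. Where a count was 0, the limit given is that of 3 counts and not the end of an interval.

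Neutrophils and monocytes arise from a shared progenitor in the bone marrow, and in the mouse some of this production also takes place in the spleen. Myeloperoxidase (Mpo), neutrophil elastase (Elane), proteinase 3 (Prtn3) and cathepsin G (Ctsg) are made early, while the cell still divides, and are packed into azurophil granules. Genes of the specific granule, such as Camp, Ltf, Ngp and Lcn2, come on in the next stage of the neutrophil line, whereas the monocyte line takes up genes such as Irf8, Csf1r, Ly6c2 and Ccr2.

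The promoters of the 4 genes are shown because these genes were read together to find the cells. The sequences are those of RefSeq on build GRCm38.p6, from 250 bases before to 50 bases after the annotated start, 5′ to 3′ on the strand of the gene. Mpo is at chr11:87793534-87793833 on the plus strand, Elane at chr10:79886062-79886361 on the plus strand, Prtn3 at chr10:79879417-79879716 on the plus strand and Ctsg at chr14:56102525-56102824 on the minus strand. Elane and Prtn3 are neighbours, with 3072 bases between the end of Prtn3 and the start of Elane in the GENCODE gene models. Capitals mark AGGAAGT, a match to the core of sites for ETS factors such as PU.1.
Mpo: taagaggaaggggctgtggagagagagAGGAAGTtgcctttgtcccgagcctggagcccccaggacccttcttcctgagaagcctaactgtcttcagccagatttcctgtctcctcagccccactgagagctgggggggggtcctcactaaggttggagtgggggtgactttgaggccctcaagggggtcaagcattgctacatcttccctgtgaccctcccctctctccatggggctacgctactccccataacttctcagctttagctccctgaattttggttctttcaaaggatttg
Elane: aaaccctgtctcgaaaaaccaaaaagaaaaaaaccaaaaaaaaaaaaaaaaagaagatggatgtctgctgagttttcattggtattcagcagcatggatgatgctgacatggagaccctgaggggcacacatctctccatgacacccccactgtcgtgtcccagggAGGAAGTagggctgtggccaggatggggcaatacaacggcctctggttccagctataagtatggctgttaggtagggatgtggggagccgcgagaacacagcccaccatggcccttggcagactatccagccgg
Prtn3: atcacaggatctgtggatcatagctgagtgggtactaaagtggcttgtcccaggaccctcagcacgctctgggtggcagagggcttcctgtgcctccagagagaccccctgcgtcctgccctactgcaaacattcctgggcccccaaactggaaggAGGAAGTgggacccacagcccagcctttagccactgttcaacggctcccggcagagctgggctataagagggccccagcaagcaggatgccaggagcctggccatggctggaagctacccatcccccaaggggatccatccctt
Ctsg: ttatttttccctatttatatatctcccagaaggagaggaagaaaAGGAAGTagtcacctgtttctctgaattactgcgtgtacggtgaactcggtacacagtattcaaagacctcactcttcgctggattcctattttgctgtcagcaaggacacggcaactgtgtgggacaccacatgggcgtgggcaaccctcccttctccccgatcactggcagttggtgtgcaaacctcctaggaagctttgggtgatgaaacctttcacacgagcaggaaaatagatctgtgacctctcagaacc

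AGGAAGT was found once in each of the 4 promoters, 223 bases before the start of Mpo, 84 before that of Elane, 94 before that of Prtn3 and 206 before that of Ctsg. Either strand was searched, and 9.57% of the 27025 promoters of this length in the table held it. The motif was chosen after these 4 sequences were seen. The longer GAGGAAGT, which contains AGGAAGT, was in 3 of the 4 and in 3.28% of all promoters. CAACGG, a core of MYB sites, lay 51 bases before the start of Elane and 56 before that of Prtn3, and was in 5.30% of promoters. TGTGGT, a core of RUNX sites, was in Ctsg alone and in 16.9% of promoters. TTGCNNAA, a form of the C/EBP site, was in none of the 4 and in 10.8% of promoters. A match is a stretch of letters and was not tested as a binding site.

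Members were rare in each library. The control library held 10 of 15992 kept cells, or 0.0625% (0.0300% to 0.115%). The Ang II library held 26 of 14114, or 0.184% (0.120% to 0.270%). The B6.SLE123 library held 83 of 17704, or 0.469% (0.374% to 0.581%). The log2 ratio of the share over control was 2.91 for B6.SLE123 (1.96 to 4.02) and 1.56 for Ang II (0.46 to 2.78). Strain or treatment cannot be told apart from the library or from the sexes pooled in the control library. Counted among cells under 3500 genes alone, 7 control, 9 Ang II and 55 B6.SLE123 members remained. The shares were then 0.0644% for Ang II and 0.314% for B6.SLE123. The median depth of kept cells was 1794, 2784 and 1973 UMIs in control, Ang II and B6.SLE123, and its part in the shares was not tested.

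The members sat in a few hashtag populations. In the control library, C0302 held 6 members (0.183%), C0305 held 3 (0.100%) and C0304 held 1 (0.0424%). The other 3 populations held 0, which allows shares of up to 0.0970%, 0.157% and 0.127% for C0301, C0303 and C0306. In the Ang II library, C0302 held 9 members (0.474%), C0303 8 (0.332%), C0304 5 (0.194%) and C0301 4 (0.184%), while C0305 and C0306 held 0, which allows up to 0.109% and 0.131%. In the B6.SLE123 library, C0303 alone held 67 members, or 1.97% of its 3395 cells (1.53% to 2.50%). The other populations of that library held 8 in C0302 (0.281%), 4 in C0301 (0.135%), 2 in C0304 (0.0696%), 2 in C0306 (0.0600%) and 0 in C0305, which allows up to 0.131%. Thus 80.7% of B6.SLE123 members carried C0303. Without C0303 the share was 16 of 14309 cells, or 0.112% (0.0639% to 0.182%), and the log2 ratio over control was 0.84 with an interval that included 0 (-0.39 to 2.14). The median share over the 6 hashtags was 0.0212% in the control, 0.189% in the Ang II and 0.102% in the B6.SLE123 library, and the ranges of the 3 libraries overlapped.

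**Figure D1:**
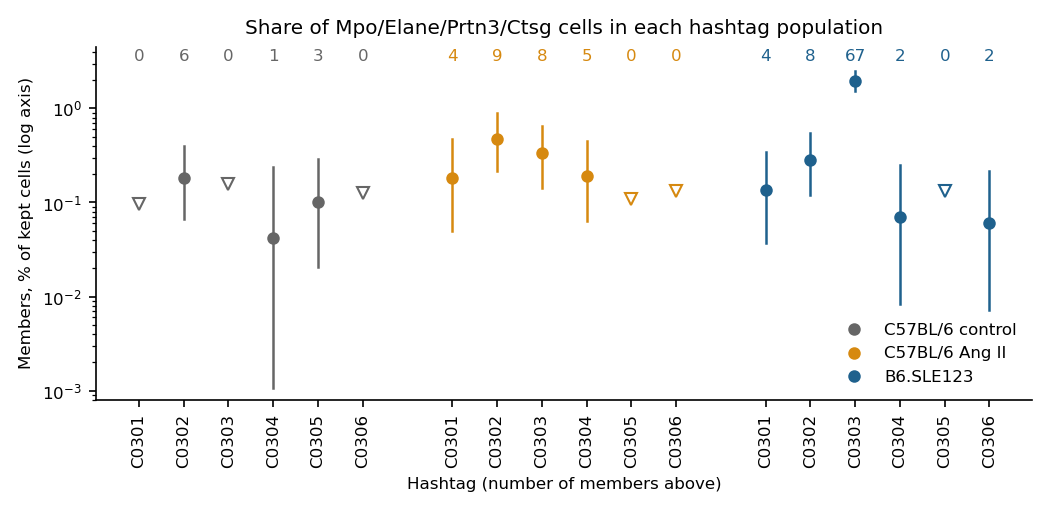
Share of kept cells that were members in each hashtag population (log axis, percent), with exact 95% intervals and the number of members above, for the control (grey), Ang II (orange) and B6.SLE123 (blue) libraries; open triangles mark the limit that 0 members allow. C0303 of the B6.SLE123 library, at 1.97%, sits above the other 17 populations, of which the highest is 0.474%.

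C0303 of the B6.SLE123 library also differed in other cells. Immature neutrophils, meaning cells with 5 or more UMIs of Camp, Ltf, Ngp and Lcn2 that were not members, made up 6.24% of it, against 0.139% to 2.21% in the other 5 populations of that library. B cells, read as 2 or more UMIs of Cd79a, made up 64.6% of it against 78.5% to 85.9%. Its median depth was 2684 UMIs per cell, the highest of the 6. Per 100 immature neutrophils C0303 held 31.6 members, against 8.51 in C0301, 12.7 in C0302 and 0 in C0305. C0306 held 28.6, from 2 members to 7 immature neutrophils, and C0304 had 2 members to 4. The part of these differences in the member share was not tested. The name immature neutrophils is a working one, since a sum of 5 UMIs also takes in later neutrophils. In the B6.SLE123 library this class held 13638 UMIs of Retnlg and 1287 of Mmp9, genes of mature neutrophils.

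Members were deep. Their median was 15434 UMIs in the control, 20533.5 in the Ang II and 12178 in the B6.SLE123 library, against 1794, 2784 and 1973 over all kept cells. The genes detected reached 6638 in 1 cell, and 3, 17 and 28 members had 3500 genes or more. The median mitochondrial share was 1.01%, 0.852% and 0.876%. The libraries shared 415 to 496 barcodes in pairs, and of the member barcodes 0, 4 and 5 occurred in the other library of a pair, none of them as a member there. The limit on Cd79a and Cd3e removed 0, 6 and 17 cells that passed every other condition. In B6.SLE123 C0305, which held no member, it removed 6 barcodes, with up to 301 UMIs of the 4 genes in 1 of them.

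Among the 119 members the 4 genes did not come together in every cell. Prtn3 had a UMI in 115 members (96.6%), Elane in 97 (81.5%), Ctsg in 81 (68.1%) and Mpo in 68 (57.1%). All 4 were found in 53 members (44.5%), Elane and Prtn3 without Mpo in 36, and Prtn3 alone in 10. Counts per cell ran from 0 to 513 UMIs for Mpo, 702 for Elane, 663 for Prtn3 and 156 for Ctsg, with medians of 2, 5, 18 and 2. In UMIs per 1000000 UMIs of the same cells (CPM), Elane was 423.4 in the control members (323.9 to 543.9), 2784 in Ang II (2647 to 2926) and 3959 in B6.SLE123 (3843 to 4077). Mpo was 1145, 3009 and 3118 CPM in the same order, Prtn3 652.5, 3321 and 5562 CPM, and Ctsg 673.3, 873.1 and 1298 CPM. All 4 genes were lowest in the 10 control members. As a background, B cells of the B6.SLE123 library, with a median of 2081.5 UMIs, had a UMI of Prtn3 in 1.21%, of Elane in 0.723%, of Mpo in 0.372% and of Ctsg in 0.365% of cells.

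At the edge of the rule, 31 cells had 3 or 4 UMIs of the 4 genes and lay just outside, and 17 had 5 to 7 and lay just inside. Mpo was found in 1 cell of either set, and Prtn3 in 29 of the 31 and in all 17. By the groups defined next, the 31 comprised 14 Camp-high and 15 F13a1-positive cells, and the 17 comprised 8 and 8.

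The label was met in part. Kit, Cd34 or Flt3, receptors and surface proteins of blood progenitors, had a UMI in 4 of 10 control members (40.0%, 12.2% to 73.8%), 9 of 26 Ang II members (34.6%, 17.2% to 55.7%) and 32 of 83 B6.SLE123 members (38.6%, 28.1% to 49.9%), against 1.37% of B6.SLE123 B cells. With each cell thinned to 2000 UMIs, the member shares were 10.0%, 7.69% and 14.8% and that of B cells 0.856%. The thinned shares of the 3 libraries were 4.37%, 5.93% and 3.25% in Csf1r-positive cells (described with their comparison). In immature neutrophils they were 0%, 1.82% and 1.10%. The intervals of control members (0.253% to 44.5%) and Ang II members (0.946% to 25.1%) included the values of the Csf1r-positive cells, and that of B6.SLE123 members (7.90% to 24.5%) did not. The thinning left out 0, 0 and 2 members and 6610 of the 13966 B cells. A UMI of Camp, Ltf, Ngp or Lcn2 was found in 5 of 10, 23 of 26 (88.5%) and 45 of 83 members (54.2%) of the 3 libraries, and in 4 of 10, 53.9% and 39.5% after thinning, against 8.65% and 6.47% of B6.SLE123 B cells and 19.3% and 13.1% of Ang II B cells. The members are therefore called here by their genes rather than as progenitors.

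The members fell into groups with different genes, which were set after their values were seen. The summed UMIs of Camp, Ltf, Ngp and Lcn2 were 26 or fewer in 83 members and 1088 or more in the other 36, with no cell between. These 36 are called Camp-high (4, 10 and 22 cells of the 3 libraries, 30.3% of members). F13a1 encodes the A chain of coagulation factor XIII and is a gene of the monocyte line. It had a UMI in 64 members that were neither Camp-high nor of the protease-high group given next, called F13a1-positive (3, 12 and 49 cells, 53.8%). In 5 members (1, 2 and 2 cells, 4.20%) the mast cell and basophil proteases Mcpt8, Prss34 and Cpa3 summed to 337 UMIs or more. The remaining 14 (2, 2 and 10 cells, 11.8%) are called F13a1-negative. Each group was present in all 3 libraries.

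**Figure D2:**
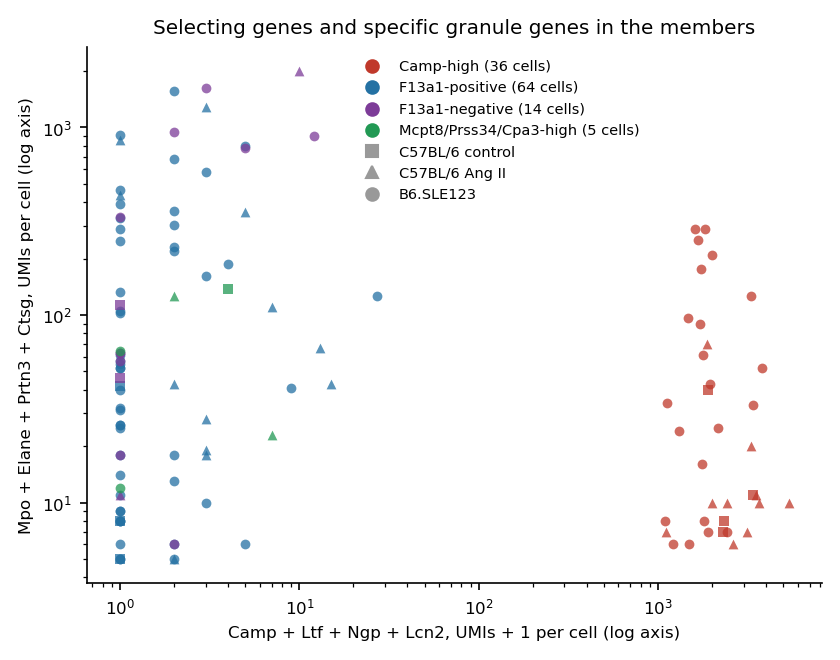
UMIs of Camp, Ltf, Ngp and Lcn2 plus 1 (x, log axis) against UMIs of Mpo, Elane, Prtn3 and Ctsg (y, log axis) in the 119 members, coloured by group and with the library as symbol. The 36 Camp-high cells lie at 1088 UMIs or more on the x axis and the other 83 at 26 or fewer, with none between.

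The groups differed in the 4 selecting genes as well. In the B6.SLE123 library Mpo was 494 CPM in Camp-high members (420.4 to 576.8), 3403 in F13a1-positive (3262 to 3547) and 8395 in F13a1-negative members (7905 to 8908). Ctsg was 117.3, 1404 and 3433 CPM in the same order, Elane 2510, 3090 and 12300 CPM, and Prtn3 2606, 5717 and 12700 CPM. The F13a1-negative cells were the highest of the 3 groups for each gene, but this order rested on C0303. Without C0303, the 2 remaining F13a1-negative cells had 745.5 CPM of Mpo, 32.4 of Elane, 1264 of Prtn3 and 583.4 of Ctsg. The 8 remaining F13a1-positive cells had 4310, 5208, 5373 and 1183 CPM, and so were higher for all 4 genes. The 5 remaining Camp-high cells had 38.2, 1057, 1248 and 50.9 CPM. Ms4a3, a membrane protein of granulocyte and monocyte progenitors, was 466.2, 277.1 and 1114 CPM in Camp-high, F13a1-positive and F13a1-negative members, and 420.1, 250.5 and 32.4 CPM without C0303.

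The transcription factors separated the groups too. Irf8, which directs the monocyte line, was 3.09 CPM in Camp-high (1 cell), 338.7 in F13a1-positive (43 of 49 cells) and 76.8 in F13a1-negative members (3 of 10 cells). Cebpe, which directs the specific granule stage, was 599, 20.01 and 199.7 CPM, and had a UMI in all 22 Camp-high cells. Myb, a factor of immature blood cells, was 49.4, 80.1 and 414.8 CPM and had a UMI in 10 of 10 F13a1-negative cells. Without C0303, the same 3 groups had 0, 259.1 and 291.7 CPM of Irf8, 712.9, 25.9 and 32.4 of Cebpe, and 50.9, 86.4 and 356.6 of Myb, so that the F13a1-negative cells changed place for Irf8. Spi1, which encodes PU.1, was 546.5, 412.6 and 453.2 CPM, the narrowest spread of these 4 factors. Gata1, the factor of red cells, was at 0 in all 83 members (up to 2.69 CPM).

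**Figure D3:**
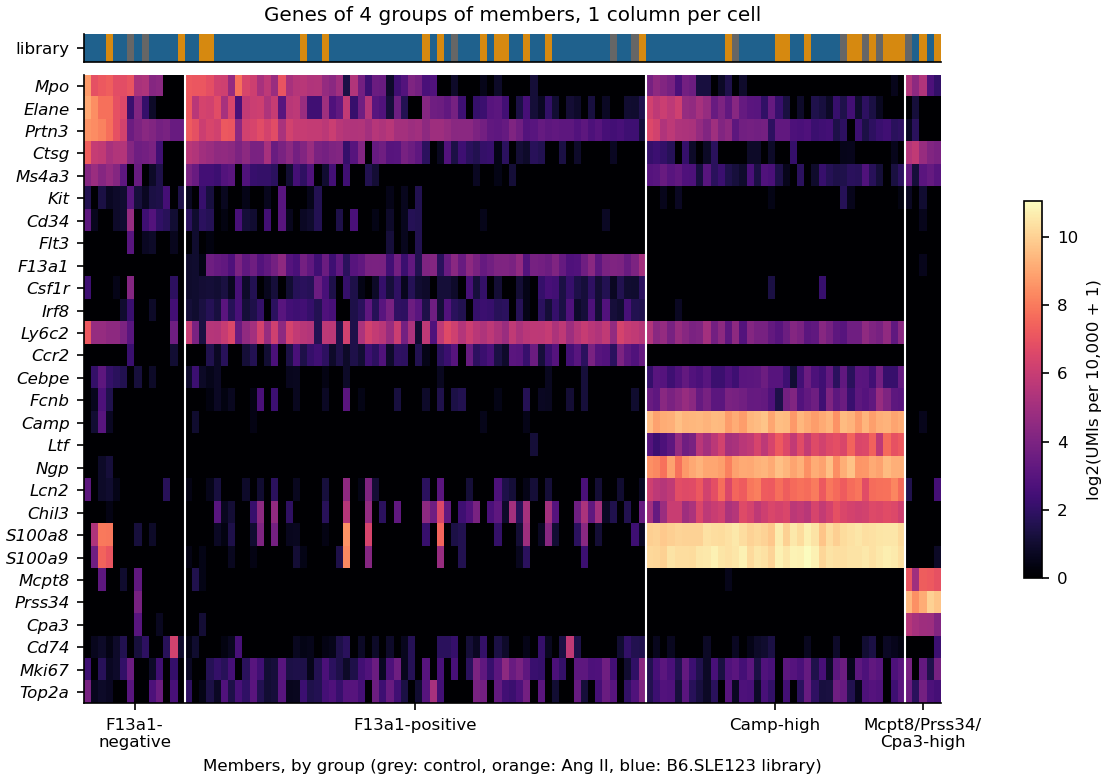
Level of 28 genes (rows, log2 of UMIs per 10000 plus 1) in the 119 members (columns), ordered by group, with the library in the bar above. Camp, Ngp and S100a8 are bright in the Camp-high cells, F13a1, Irf8 and Ccr2 in F13a1-positive cells, and Prss34 in the last 5 cells.

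The 14 F13a1-negative members held the progenitor genes most often. Kit, Cd34 or Flt3 had a UMI in all 10 of the B6.SLE123 library, and in 7 of them after thinning. Kit was 107.5 CPM there (58.8 to 180.4), against 20.01 in F13a1-positive and 9.26 in Camp-high members. Cd34 was 184.3 CPM, against 64.7 and 0. Without C0303, Kit was 64.8 CPM in the 2 F13a1-negative cells and 0 in the other groups, and Cd34 324.1 against 34.6 and 0. These cells were not uniform. A single cell held all 602 UMIs of Prg2, an eosinophil granule protein, in 7220 UMIs. Another, of 18319 UMIs and without Mpo or Elane, held 141 of the 245 Cd74 UMIs of all 83 members (57.6%). In the Ang II library, 1 of the 2 F13a1-negative cells carried 513 UMIs of Mpo, 702 of Elane and 663 of Prtn3, the highest of any member for each gene, and the other carried 0 of Mpo and Elane.

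The 5 members with high Mcpt8, Prss34 and Cpa3 carried Mpo and Ctsg with little Elane. Prss34, a serine protease of basophils, was at 1083 UMIs in the control cell, 1100 and 1085 in the Ang II cells, and 286 and 565 in the B6.SLE123 cells. Elane was at 0 in 4 of the 5 and at 1 UMI in the other. In the 2 B6.SLE123 cells Ctsg was 3964 CPM (2970 to 5186), Elane 74.8 (1.89 to 416.8) and F13a1 0 (up to 224.4). Ms4a2 and Fcer1a, subunits of the IgE receptor, were 748 and 1496 CPM there, and at 0 in the F13a1-positive cells.

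Within the F13a1-positive members of the B6.SLE123 library, Mpo went from 0 to 478 UMIs. Mpo was at 0 in 18 of these 49 cells, at 1 to 9 UMIs in 7 and at 10 or more in 24. Prtn3 had a median of 8.18 UMIs per 10000 in the cells without Mpo (3.99 to 24.8), 32.1 in the middle set (7.11 to 47.6) and 65.2 in the cells with 10 or more (19.99 to 150.2). Ctsg followed the same order, with medians of 0.434, 3.29 and 15.2 per 10000. Lgals3, a lectin of mature monocytes and macrophages, ran the other way, with medians of 30.5, 14.0 and 1.88 per 10000. Ccr2, the receptor that guides monocytes out of the marrow, had medians of 6.35, 0.850 and 1.67. Kit, Cd34 or Flt3 was found in 1 of 18, 2 of 7 and 16 of 24 cells, and Ms4a3 in 2, 2 and 15. The median depth was 8789, 7196 and 17892 UMIs, and its part in these shares was not tested. In the Ang II library Mpo was at 0 in 5, at 1 to 9 in 2 and at 10 or more in 5 of the 12 F13a1-positive cells, with Prtn3 medians of 7.87, 10.3 and 61.8 per 10000. In the control library it was at 0 in 2 of 3 cells and at 1 UMI in the third.

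Most members carried a transcript of dividing cells. Mki67, a nuclear protein of cycling cells, or Top2a, the topoisomerase of mitosis, had a UMI in 9 of 10 control members (55.5% to 99.8%), 22 of 26 Ang II members (84.6%, 65.1% to 95.6%) and 76 of 83 B6.SLE123 members (91.6%, 83.4% to 96.5%). In the B6.SLE123 library the share was 25.4% of 347 immature neutrophils, 13.1% of 168 Csf1r-positive cells (described with their comparison) and 9.65% of 13966 B cells. Members were deeper than these classes, whose medians were 3990, 4244.5 and 2081.5 UMIs. With all cells thinned to 2000 UMIs the shares of members were 9 of 10, 65.4% and 67.9% in the 3 libraries, and those of the other B6.SLE123 classes 25.6%, 9.74% and 11.6%. The thinning left out 74, 14 and 6610 cells of these classes. Within the B6.SLE123 members the thinned share was 68.2% in Camp-high, 63.8% in F13a1-positive and 40.0% in F13a1-negative cells.

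**Figure D4:**
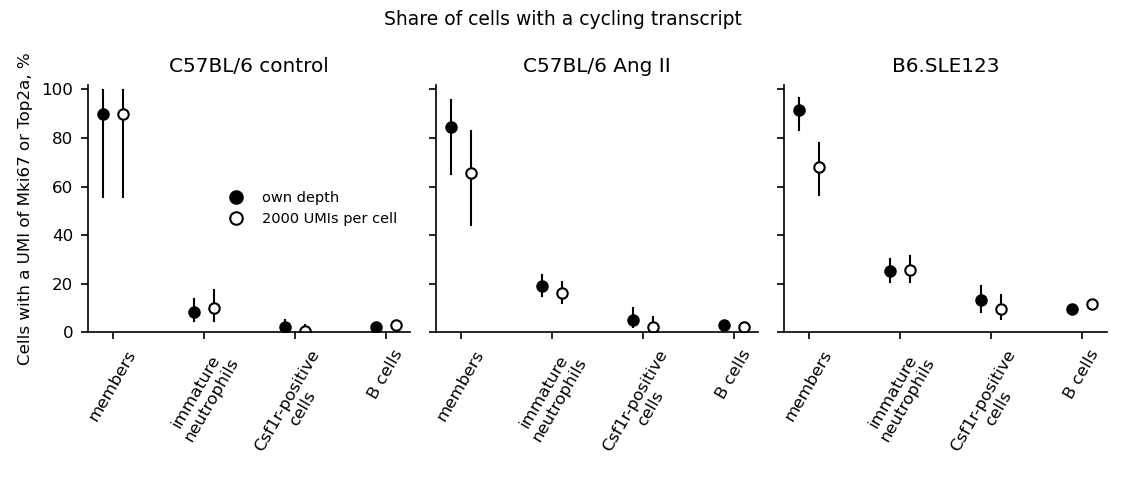
Percent of cells with a UMI of Mki67 or Top2a in members, immature neutrophils, Csf1r-positive cells and B cells of each library, at the cells' own depth (filled) and thinned to 2000 UMIs (open), with exact 95% intervals. In each library the members lie above the other 3 classes at either depth, at 65.4% in Ang II and 67.9% in B6.SLE123 after thinning.

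The genes of the B6.SLE123 members were then set beside those of the 347 immature neutrophils of the same library. Ratios are log2 ratios of UMI shares for genes with 50 or more UMIs over both sides. The rule had used these cells, so the comparison is a description. The immature neutrophils are a working class that also takes in later neutrophils. Of 5069 genes, 2001 were past 2-fold higher in members (39.5%) and 486 past 2-fold lower (9.59%), with a median of 0.66. With edgeR's trimmed mean (TMM) factors, which shifted every ratio by -0.83, the counts were 918 and 1216. Without C0303, 1792 genes reached 50 UMIs, with 647 higher and 213 lower.

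Of the azurophil granule genes other than the 4 that chose the members, 6 of 11 were past 2-fold higher and 1 lower, with a median of 1.47. With the 4 selecting genes, which the rule had fixed, they were 10 of 15 and 1 (median 2.56). Elane had the highest ratio of all genes (10.14, 9.01 to 11.58, 3959 against 3.52 CPM), with Mpo at 10.06 and Ctsg at 9.53. Beyond the selecting genes, Cst7, an inhibitor of cysteine proteases, was at 7.60 (127 UMIs against 1, 5.10 to 12.92), Ctsc, the protease that activates the granule proteases, at 4.14, and Ms4a3 at 2.56. Mgst1, a glutathione transferase, was the 1 gene past 2-fold lower, at -1.30. Serpinb1a, an inhibitor of these proteases, was at -0.49. Of the 16 stem and progenitor genes 5 reached 50 UMIs, and 4 of them were past 2-fold higher (median 3.61), with Cdk6 at 3.61 and Myb at 2.98. Without C0303 none of the 16 reached 50 UMIs. Monocyte genes were higher for 9 of 12 and lower for 1 (median 2.16, 8 and 2 with TMM), with Ccr2 at 4.80 and Csf1r at 1.85.

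Genes of later neutrophil stages lay on the other side. Of 13 specific and gelatinase granule genes other than the 4 that chose the immature neutrophils, 11 were past 2-fold lower in members and 0 higher (median -2.02). Retnlg, a secreted resistin-like protein, was at -8.54 (21.5 against 7991 CPM). Mmp9, the gelatinase of mature granules, was at 0 in all 83 members against 754.1 CPM, at least 281-fold lower against a floor of 3 UMIs. Of the genes that chose the immature neutrophils, Ltf was at -2.83, Ngp at -1.80 and Camp at -1.49, and the UMIs of these 3 genes in members came almost wholly from the Camp-high cells. Fcnb, a ficolin, was at 0.68. Of 14 mature neutrophil genes, 13 were past 2-fold lower and 0 higher (median -2.51), with S100a9 at -2.12 and Csf3r, the G-CSF receptor, at -1.80. The NADPH oxidase, which makes superoxide, had 3 of 7 genes lower and 0 higher (0 and 6 with TMM), with Cybb at -1.40 and Ncf1 at -1.34.

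Members were also higher in genes of growth. All 22 tested genes of DNA replication were past 2-fold higher (median 2.13, 19 with TMM), with Mcm6, a subunit of the replicative helicase, at 3.17 and Rrm2, which supplies deoxynucleotides, at 1.63. Of 24 mitosis genes 4 were higher and 0 lower (median 0.73), and with TMM 0 were higher and 2 lower (median -0.10), so their direction depended on the scaling. Of 18 ribosome biogenesis genes 17 were higher (median 3.93), with Fbl, the methyltransferase of ribosomal RNA, at 5.01 and Npm1, a nucleolar chaperone, at 3.54. Of 22 genes of the secretory pathway 20 were higher and 0 lower (median 2.25, 15 with TMM), with Sdf2l1 at 4.86, Calr at 3.65 and Hspa5 at 2.21, which help to fold proteins in the endoplasmic reticulum. Srm, which makes spermidine, was at 8.04 (172 UMIs against 1, 5.54 to 13.35), and Phgdh, the entry enzyme of serine synthesis, at 7.82 (148 UMIs against 1, 5.32 to 13.13). These ratios pool groups that differed. All 14 tested ribosome biogenesis genes and 19 of 21 secretory pathway genes were past 2-fold higher in F13a1-positive than in Camp-high members. Camp-high cells alone were not set beside the immature neutrophils.

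The members were also set beside 168 Csf1r-positive cells of the same library. These were chosen by Csf1r and by 5 or more UMIs of Csf1r, Ly6c2, Ccr2 and F13a1, with the selecting and the specific granule genes under 5 UMIs each set, so those genes are fixed by the rules. Ly6c2, a marker of classical monocytes, had a UMI in 138 of them (82.1%), and Ace, Adgre4 or Treml4, genes of nonclassical monocytes, in 97 (57.7%), so they are named by Csf1r and not by a monocyte class. Of 4679 genes 594 were past 2-fold higher in members (12.7%) and 764 lower (16.3%), with a median of -0.08. TMM shifted ratios by 0.09 and gave 672 and 678. Without C0303, 2123 genes were tested, with 212 higher and 458 lower.

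All 20 replication genes (median 3.59) and all 23 mitosis genes (median 2.25) were past 2-fold higher in members than in Csf1r-positive cells, with Mcm6 at 5.96, Rrm2 at 4.92, Top2a at 2.25 and Mki67 at 1.98. Ribosome biogenesis had 12 of 17 genes higher (median 1.497), and the secretory pathway 4 of 22 (median 0.54). Among cells under 3500 genes they had 2 of 9 (median 0.81) and 0 of 22 (median 0.09). Azurophil genes other than the 4 selecting genes were higher for 5 of 11 and lower for 0 (median 0.15). Of the stem and progenitor list 5 genes were tested, with 3 higher and 1 lower (median 3.87). Both without C0303 and under 3500 genes, 0 were higher and 1 lower among those that still reached 50 UMIs. Myb was at 5.36, Cdk6, a kinase of progenitor cells, at 4.63 and Cd34 at 3.87. Ms4a3 had 482 UMIs in members and 0 in Csf1r-positive cells, a log2 ratio of at least 6.74 against a floor of 3 UMIs. S100a8 was at 7.93, and its UMIs came mainly from the Camp-high cells.

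Of the monocyte list, leaving out the 4 genes that chose the Csf1r-positive cells, all 11 tested genes were past 2-fold lower in members (median -2.13), with Lgals3 at -1.51. Of 10 interferon response genes 9 were lower (median -2.40), with Irf7, which amplifies the response, at -4.22, Isg15 at -2.98 and Ifi27l2a at -2.59. Of 10 genes of the Ifi200 and SLAM families of the Sle1 region 9 were lower (median -2.18), with Ifi204 at -3.00. Of 12 antigen presentation genes 7 were lower (median -1.28), with Cd74, the invariant chain, at -4.67. Hbb-bs had the lowest ratio of all, -10.35 (5 UMIs against 4340), and 4335 of the 4340 UMIs lay in 1 cell. Ace was at -6.05 and Apoe at -7.22. Over immature neutrophils, 7 of 8 Ifi200 and SLAM genes were higher (median 3.02, 5 with TMM), and the interferon response had 1 of 11 higher and 5 lower (median -0.54), with 2 genes tested and a median of 0.73 without C0303.

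**Figure D5:**
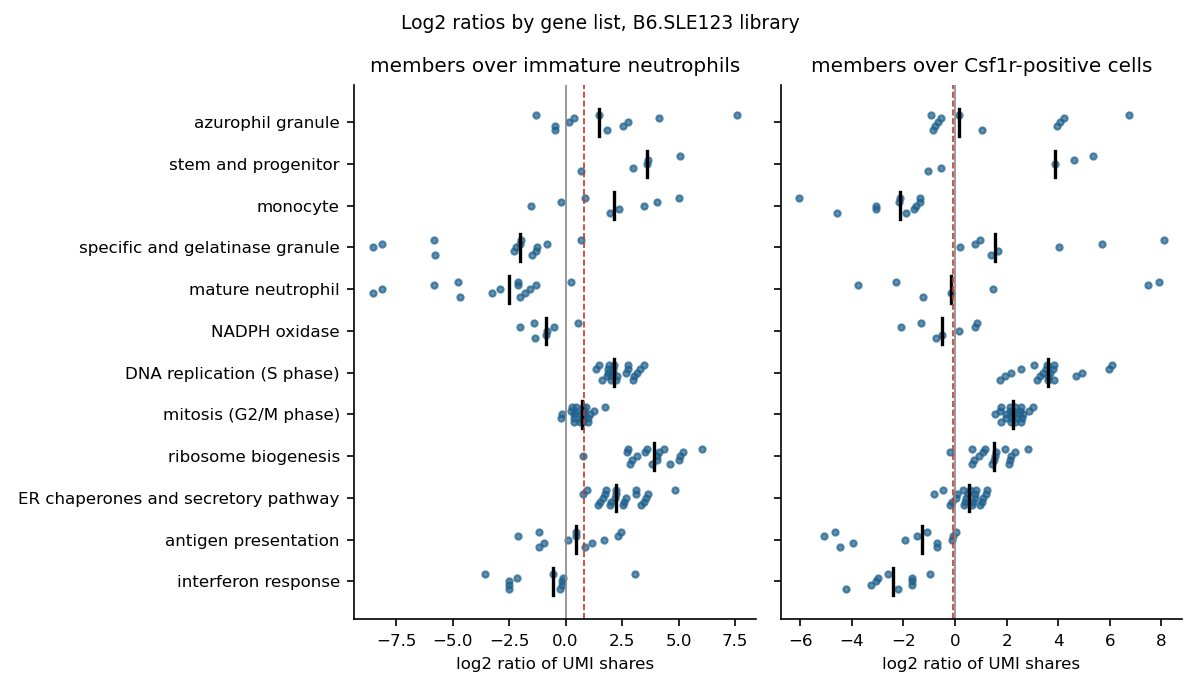
Log2 ratios of UMI shares, B6.SLE123 members over immature neutrophils (left) and over Csf1r-positive cells (right), for the tested genes (points) of each list, less the genes that chose any of these cells, with the median as a black bar; the red dashed line marks where 0 would lie with TMM factors. Replication genes are right of 0 in both panels, with medians of 2.13 and 3.59.

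The F13a1-positive and Camp-high members of the B6.SLE123 library were compared with each other. Of 2597 genes 1116 were past 2-fold higher in F13a1-positive cells (43.0%) and 136 lower (5.24%), with a median of 0.83. With TMM, which shifted ratios by -0.62, the counts were 548 and 291. Without C0303, 532 genes were tested, with 277 higher and 38 lower. Other than F13a1, which formed the group, all 8 tested monocyte genes were higher (median 4.05), with Ly86 at 6.97 (251 UMIs against 1, 4.48 to 12.28) and Ms4a6c at 5.96. Other than Camp, Ltf, Ngp and Lcn2, which formed the Camp-high group, all 8 tested specific granule genes were lower (median -4.22). S100a9 was at -7.75 and S100a8, its partner in calprotectin, at -7.00.

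Both groups carried transcripts of dividing cells, and they differed in other growth genes. None of 22 mitosis genes was past 2-fold in either direction (median -0.17, with 4 lower under TMM), and 4 of 19 replication genes were higher (median 0.48, with 0 higher and 1 lower under TMM). All 14 ribosome biogenesis genes were higher in F13a1-positive cells (median 3.00), with Npm1 at 1664 against 188.3 CPM. Secretory pathway genes were higher for 19 of 21 (median 1.81, 14 with TMM), with Hspa5 at 874.5 against 105.0 CPM and Calr at 566.6 against 52.5. NADPH oxidase genes were lower for 5 of 7 (median -1.15), with Cybb at 220.2 against 1041 CPM. The azurophil list without the 4 selecting genes was split, with 3 of 10 higher and 2 lower (median -0.38). Ctsc was higher (5.31) and Serpinb1a lower (-3.29) in F13a1-positive cells.

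Between F13a1-negative and F13a1-positive members, 65 of 2364 genes were past 2-fold higher (2.75%) and 271 lower (11.5%), with a median of -0.12. Other than F13a1, which formed the groups, all 8 tested monocyte genes were lower in F13a1-negative cells (median -2.79), with Lgals3 at -4.11. Azurophil genes without the 4 selecting genes were higher for 4 of 10 and lower for 2 (median 0.32), and with them for 8 of 14 and 2 (median 1.15), with Srgn, the proteoglycan core of granules, at 2.14 and Ms4a3 at 2.01. Without C0303, where 2 F13a1-negative cells remained, 0 of 7 azurophil genes were higher and 5 lower (median -2.09). Myb was at 2.37, and Lyz2, lysozyme, at -4.92. None of 22 secretory pathway and none of 14 ribosome biogenesis genes was past 2-fold (0 and 1 with TMM, the 1 lower). Over all genes, 461 were tested without C0303, with 12 higher and 57 lower.

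Between libraries, gene contrasts over all members were not formed because the control library held under 20. Within a group the levels are given side by side. The strain, the treatment, the library and the sexes pooled in the control library cannot be told apart. In Camp-high members Ifitm2, an antiviral membrane protein, ran from 0.660 to 1.63 UMIs per 10000 in the 4 control cells, from 1.36 to 8.72 in the 10 Ang II cells and from 4.62 to 20.8 in the 22 B6.SLE123 cells. The B6.SLE123 cells lay above all control cells and overlapped the Ang II cells, but 17 of these 22 cells carried C0303 and 3 of the 4 control cells C0302. In the same cells Ifitm3 was 166.0, 416.9 and 728.7 CPM in control, Ang II and B6.SLE123. Ifitm6 was 152.1, 764.4 and 524.9 CPM, and so was highest in Ang II. For Ifitm3, 1 control cell held 10 of the 12 control UMIs. Without C0302 the control value of Ifitm3 was 660.3 CPM (316.6 to 1214), from that 1 cell. Elane in the same cells was 525.6 CPM in control (371.9 to 721.4), 193.6 in Ang II (137.6 to 264.6) and 2510 in B6.SLE123 (2341 to 2689). Without C0303 the B6.SLE123 value was 1057 CPM, from 5 cells, and without C0302 that of the control was 1849 CPM, from 1 cell. Mpo was 0 (up to 41.5), 24.8 and 494 CPM, and 38.2 CPM in B6.SLE123 without C0303, with 3 UMIs against 160 with it. Ltf, by contrast, was 7248, 12260 and 5061 CPM, and S100a8 137400, 138400 and 110100 CPM. Without C0303 the B6.SLE123 values were 6760 and 120100 CPM, and without C0302 the control had 3632 CPM of Ltf, so the order of control and B6.SLE123 for Ltf depended on the hashtags. In F13a1-positive members Ifitm2 was 899.1 CPM in the 3 control cells (622.7 to 1256), 709.4 in the 12 Ang II cells (614.5 to 814.8) and 1992 in the 49 B6.SLE123 cells (1885 to 2104), with ranges per cell that overlapped. Ifitm3, of the same family, was 3173, 1075 and 2354 CPM and so was highest in the control cells, with 1486 CPM in B6.SLE123 without C0303. Ifi27l2a was 846.2, 159.6 and 970 CPM.

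Summed markers of B, T and NK, erythroid and lymphoid progenitor cells reached at most 298.5 CPM in a library. Elane was at 423.4 CPM in control members. Basophil and eosinophil genes lie outside these sums. In B6.SLE123 members Prss34 was at 770.9 CPM, from 3 cells, and Prg2 at 539 CPM, from 1 cell. Beside Cd79a, fixed at 0, the B cell list of 13 genes summed to 111.1 CPM in control, 152.1 in Ang II and 142.4 in B6.SLE123 members, and ran from 0 to 14.0 UMIs per 10000 over all cells. The 12 T and NK cell genes summed to 298.5, 195.0 and 80.6 CPM, with UMIs of 2 or 3 of the genes. The 14 erythroid genes summed to 62.5, 44.7 and 43.0 CPM, and the 7 lymphoid progenitor genes to 6.94, 1.79 and 1.79 CPM. Their part in the results was not tested.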

How the data were processed

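Splenocytes were sequenced as 3 droplet libraries (Chromium 5′), and the authors deposited UMI counts per gene and hashtag per barcode, made with Cell Ranger 6.0.0 on mm10 per the file headers and labels. The study's own filter kept RNA counts over 200 and under 3500, whether of genes or UMIs not being given. Here no upper limit was set. The members and lists were chosen with earlier results of these data known. No doublet caller was run. Doublets were limited by the hashtag ratio and by Cd79a and Cd3e at 0. Groups came from the labels, 1 library each, so no test between groups was made, and Dixon's gap was used over hashtags only. Shares have exact Clopper-Pearson intervals, CPM exact Poisson intervals, and ratios exact conditional intervals, for genes with 50 or more UMIs over both sides, past 2-fold. Against 0, a floor of 3 UMIs was used. Cells were thinned to 2000 UMIs for shares. Csf1r-positive cells had Csf1r, 5 or more UMIs of Csf1r, Ly6c2, Ccr2 and F13a1, and no Siglech, Cd79a or Cd3e. Named genes were the 4 selecting genes, genes of 27 lists, and the 10 highest and 10 lowest ratios of a comparison. Library depth was 44146350, 59043555 and 63516694 UMIs. The scripts were tested on simulated data. Python 3.11.15, numpy 2.4.6, scipy 1.17.1, pandas 2.3.3, R 4.3.3 and edgeR 4.0.16 (TMM factors only) were used. Alternatives were other scalings, thresholds, depths and leaving out each hashtag. Leaving out the genes that the rules used from the lists, and the leading hashtag from the groups of members, was chosen after seeing the data.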

Additional observations from a re-analysis of the deposited data

Results flagged for a closer look

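Within each library, 1 hashtag population was set apart from the other 5 by Dixon's gap in 5 of 9 comparisons. Independent draws from 1 normal distribution pass the limit used about 1 in 20 times. These shares rest on few cells, many are at 0, and the measures of a library share cells. That rate therefore does not hold here, and the gap is given as a description. In the control library, Camp-high members were 0.0916% of C0302, which rests on 3 cells against 1 in the next population. In the Ang II library they were 0.369% of C0302. In the B6.SLE123 library C0303 stood apart in the share of members, 1.97%, in that of Camp-high members, 0.501%, and in that of F13a1-positive members, 1.21%. The labels do not say which mice or treatment these hashtags marked, and the 3 measures of C0303 share cells.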

How the results depend on the processing

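For 24 summary values, 239 alternatives gave 204 values within the limits of the main one and 35 outside. The limits were the interval of the main value, or a fixed fold of it for counts of genes. Shares and counts have no direction, so an opposite direction could arise only for the log2 ratios, where there were 0. For 80 single genes, 572 of 637 alternatives were within the limits, 65 outside and 0 of opposite direction. These genes were the 10 highest and 10 lowest ratios of each comparison in the same data, and some were fixed by the rules. Their ratios lay so far from 0 that the 0 reversals say little about how stable a direction is. Where the limits or settings below moved a value, the cause was not tested unless fewer cells or genes entered by construction. Under 3500 genes, the member share was 0.0644% in Ang II and 0.314% in B6.SLE123, Mki67 or Top2a was in 100% of control members, Kit, Cd34 or Flt3 in 25.5% of B6.SLE123 members, and 1118 genes were higher than in immature neutrophils and 269 than in Csf1r-positive cells. With 3 or more UMIs of the 4 genes the B6.SLE123 share was 0.587%, and with 10 or more 0.367%. Thinned, Mki67 or Top2a was in 67.9% of B6.SLE123 members, Kit, Cd34 or Flt3 in 10.0%, 7.69% and 14.8% of the 3 libraries, and Camp, Ltf, Ngp or Lcn2 in 53.9% of Ang II and 39.5% of B6.SLE123 members. With TMM, 918 genes were higher and 1216 lower than in immature neutrophils (942 and 1173 by median-of-ratios), and 548 and 291 for F13a1-positive over Camp-high. With 20 UMIs as minimum, 3248 were higher than in immature neutrophils, and 1097 higher and 1288 lower than in Csf1r-positive cells. Leaving out 1 hashtag gave B6.SLE123 shares of 0.112% to 0.564%, log2 ratios over control of 0.84 to 3.90, control Mki67 or Top2a of 75.0% to 100%, B6.SLE123 Kit, Cd34 or Flt3 of 25.0% to 39.5%, 647 to 2006 genes higher and 213 to 495 lower than in immature neutrophils, and 212 to 593 higher and 458 to 742 lower than in Csf1r-positive cells. Without C0303, chosen after seeing the data for the groups of members, the counts were 277 and 38 for F13a1-positive over Camp-high and 12 and 57 for F13a1-negative over F13a1-positive. Planned gene contrasts between libraries were not run, since the control held under 20 members. No paired analysis was possible because each group was 1 library.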

Other observations

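Barcodes with 5 or more UMIs of the 4 genes that the limit on Cd79a and Cd3e removed came from 3 hashtags of the Ang II library (1, 3 and 2 barcodes) and 4 of the B6.SLE123 library (3 in C0302, 6 in C0303, 6 in C0305 and 2 in C0306), and from none of the control library. Their highest sums of the 4 genes in the B6.SLE123 library were 350, 915, 301 and 108 UMIs. The B cells of C0305 there held 433 Elane UMIs in 11 cells, of which 1 cell held 228 (52.7%), and those of C0303 held 610 in 22 cells, of which 1 held 418 (68.5%). Elane in B6.SLE123 B cells ran from 2.47 to 73.8 CPM over the 6 hashtags, and was highest in C0305, which held 0 members.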
